A study of Mus musculus with 6 samples.

Results

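The 10 genes described here encode the fast and slow forms of 4 contractile proteins of striated muscle. They were taken from the 47719 gene identifiers measured in mouse prostate by their symbols alone, and each symbol matched 1 identifier. The 6 fast isoforms are the myosin heavy chains Myh1, Myh2 and Myh4 and the troponin subunits Tnni2, Tnnt3 and Tnnc2. The 4 slow isoforms are the myosin heavy chain Myh7 and the troponin subunits Tnni1, Tnnt1 and Tnnc1.

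Skeletal muscle fibres are typed by the myosin heavy chain they make. Myh7 marks slow type I fibres, which resist fatigue, Myh2 marks fast oxidative type IIA fibres, Myh1 marks type IIX and Myh4 marks type IIB, the fastest and most glycolytic type of the mouse. Troponin sits on the thin filament and makes contraction depend on calcium, with troponin C binding calcium, troponin I holding the filament off and troponin T anchoring both to tropomyosin. Each subunit has a fast and a slow form, and the slow troponin C gene Tnnc1 and the slow myosin gene Myh7 are also used by heart muscle. The prostate itself is built of secretory epithelium and smooth muscle, which uses none of these myosins as its main motor, while the striated sphincter of the urethra lies directly beside it.

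Prostate RNA was sequenced from 6 mice of the strain B6.129S4-Trp53tm3.1Tyj/J. The animals, called by their own numbers, were wildtype mice 39 and 41 (Trp53+/+, 0 mutant alleles), heterozygous mice 37 and 40 (Trp53R270H/+, 1 mutant allele) and homozygous mice 47 and 49 (Trp53R270H/R270H, 2 mutant alleles). All 6, controls included, were about 3 months old and had received 5 Gy to the whole body 6 h before dissection. There was thus no unirradiated control, and no Cre driver that would limit the allele to a cell type is named. Values are FPKM, fragments scaled by gene length and by the number mapped, which allows levels of different genes to be set side by side. The values of a genotype are given throughout in the order of mice 39 and 41, 37 and 40, and 47 and 49.

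Relative to wildtype mouse 39, the lowest steps of the values gave 0.79 to 1.08 times as many fragments in the other 5 mice. The number of genes at 1 FPKM or more ran from 13452 to 13827. Trp53 lay between 17.3 and 21.4 FPKM in the 6 mice, a gene-level value that does not separate the alleles and therefore does not check a genotype. Homozygous mouse 47 stood apart in its epithelial genes. Its sum over 10 fixed prostate epithelial genes was 1482 FPKM, against 13873 to 23700 in the other 5 mice, and its seminal vesicle genes stood apart in both directions. Svs4 and Svs5 were listed at 0 in mouse 47 alone, and Svs2 was at 0 both there and in homozygous mouse 49. In mouse 47, Svs1 was 9136 FPKM against 9.22 to 388 elsewhere and Svs6 was 26147 FPKM against 28.6 to 1021. The sum of the 5 seminal vesicle genes, 35283 FPKM in mouse 47, lay inside the range of the other mice, 3356 to 53470. Results that rest on mouse 47 or on mouse 49 are therefore also given without it.

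The 3 fast myosin genes lie side by side on the plus strand of chromosome 11 (GRCm38), with Myh2 from 67171027 to 67197517, Myh1 from 67200052 to 67224575 and Myh4 from 67238029 to 67260446. The end of Myh4 lies 2.32 Mb before the start of Trp53, the altered gene, on the same chromosome. Tnni2 (142441808 to 142444410) and Tnnt3 (142498836 to 142516009) are neighbours on chromosome 7, 54.4 kb apart, and Tnnc2 (164777161 to 164779967) is on chromosome 2. The slow genes are scattered, with Myh7 (54970684 to 54994626) and Tnnc1 (31208312 to 31211729) on chromosome 14, Tnni1 (135779434 to 135810989) on chromosome 1 and Tnnt1 (4504570 to 4516382) on chromosome 7, where the cardiac troponin I gene Tnni3 lies 1.92 kb from it.

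The region around the transcription start is shown for the 4 myosins, which set the fibre type, and for the fast and slow troponin C genes, since the slow one had both its lowest and its highest value in homozygous mice. The sequences are RefSeq windows of 300 bases (GRCm38.p6, from 250 bases before to 50 after the listed start), written along the gene's own strand. Capitals mark the TATA box letters TATAAA, the E-box CAGCTG and the MCAT element CATTCC, on either strand, and matches to the MEF2 and CArG motifs, which are known from muscle promoters. A window was found for 8 of the 10 genes, all except Tnni2 and Tnnt3.
Myh4, chr11:67237562-67237861, plus strand: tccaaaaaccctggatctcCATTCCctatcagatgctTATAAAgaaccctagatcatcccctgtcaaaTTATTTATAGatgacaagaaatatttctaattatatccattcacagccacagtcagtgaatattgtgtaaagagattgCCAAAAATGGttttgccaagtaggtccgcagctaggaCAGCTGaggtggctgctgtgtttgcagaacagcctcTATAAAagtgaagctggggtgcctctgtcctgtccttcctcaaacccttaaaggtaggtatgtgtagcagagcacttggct
Myh1, chr11:67199852-67200151, plus strand: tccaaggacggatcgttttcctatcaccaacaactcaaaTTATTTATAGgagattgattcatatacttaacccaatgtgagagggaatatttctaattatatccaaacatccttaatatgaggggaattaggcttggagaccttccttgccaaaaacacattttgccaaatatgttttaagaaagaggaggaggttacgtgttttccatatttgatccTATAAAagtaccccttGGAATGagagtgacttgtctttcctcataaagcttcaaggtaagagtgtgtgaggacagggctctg
Myh2, chr11:67170777-67171076, plus strand: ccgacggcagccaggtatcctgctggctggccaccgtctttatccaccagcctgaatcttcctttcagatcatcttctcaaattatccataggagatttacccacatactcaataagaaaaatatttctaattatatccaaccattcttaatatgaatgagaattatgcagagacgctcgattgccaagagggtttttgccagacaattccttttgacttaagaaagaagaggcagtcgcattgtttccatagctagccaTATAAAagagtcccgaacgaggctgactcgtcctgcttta
Myh7, chr14:54994500-54994799, minus strand: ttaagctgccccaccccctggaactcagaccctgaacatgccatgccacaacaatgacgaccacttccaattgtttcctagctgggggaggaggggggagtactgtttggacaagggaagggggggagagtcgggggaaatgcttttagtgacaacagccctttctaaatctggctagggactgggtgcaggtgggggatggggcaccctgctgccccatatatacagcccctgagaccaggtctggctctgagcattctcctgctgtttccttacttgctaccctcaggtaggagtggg
Tnnc2, chr2:164779685-164779984, minus strand: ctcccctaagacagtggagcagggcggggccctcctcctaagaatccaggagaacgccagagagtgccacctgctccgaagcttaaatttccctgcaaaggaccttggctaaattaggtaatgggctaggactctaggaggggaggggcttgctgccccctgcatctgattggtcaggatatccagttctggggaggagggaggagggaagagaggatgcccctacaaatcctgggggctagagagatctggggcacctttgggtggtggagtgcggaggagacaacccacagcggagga
Tnnc1, chr14:31208062-31208361, plus strand: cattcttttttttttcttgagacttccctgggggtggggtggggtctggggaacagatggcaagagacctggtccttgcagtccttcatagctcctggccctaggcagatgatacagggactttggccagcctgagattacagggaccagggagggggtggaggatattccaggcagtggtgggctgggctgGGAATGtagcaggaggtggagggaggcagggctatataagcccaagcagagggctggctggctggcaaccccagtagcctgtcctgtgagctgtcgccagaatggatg

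The Myh4 and Myh1 windows, which belong to the most abundant of the myosins, were the only 2 of the 8 with a MEF2 match, a motif found in 3.19% of all 32851 promoter windows. In both of them the letters TATAAA stand shortly before the start, at -31 in Myh4 and -32 in Myh1, as they do at -30 in Tnnt1, while in Myh2 they lie 10 bases after the listed start. TATAAA was present in the windows of 4 of the 8 genes (Myh4, Myh1, Myh2 and Tnnt1), against 13.6% of all windows, and its reverse complement overlaps the MEF2 match in Myh4 and Myh1. CATTCC was present in 4 of the 8 (Myh4, Myh1, Tnnc1 and, at the other listed start, Myh7) against 14.7%. CAGCTG was present in 2 (Myh4 and Tnni1) against 16.3%, and CArG in 1 (Myh4) against 1.63%. These are matches of letters only, and binding was not measured.

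Within the 10 isoform genes, the muscle signal in every prostate was almost wholly fast. Fast isoforms made up 99.0% to 99.7% of the summed FPKM of the 10 genes in each of the 6 mice, and the fast myosins Myh4 and Myh1 together made up 97.9% to 99.2% of the 4 adult myosins. The 10 genes summed to 815 and 1084 FPKM in wildtype mice 39 and 41, to 2075 and 2302 in heterozygous mice 37 and 40, and to 2588 and 2288 in homozygous mice 47 and 49. All 4 mutant prostates were above both wildtype prostates in this sum. As a share of all FPKM it was 0.150% and 0.178% in the wildtype pair, 0.328% and 0.400% in the heterozygous pair and 0.407% and 0.441% in the homozygous pair. In a bulk sample, more muscle in the tissue taken and more muscle RNA per fibre cannot be told apart.

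**Figure D1:**
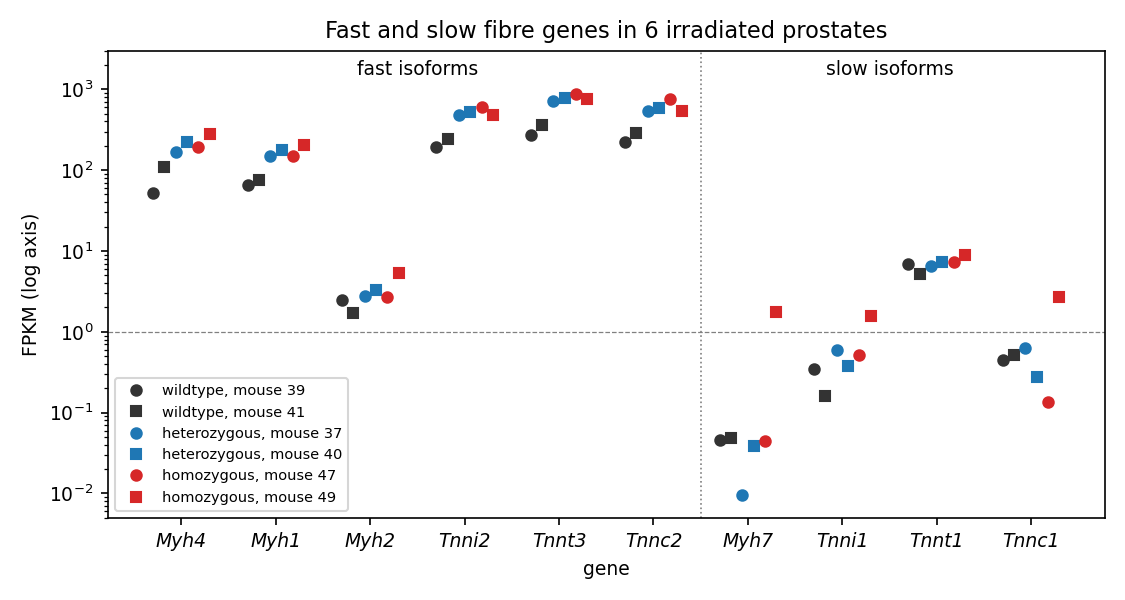
FPKM of the 10 fibre genes (log axis) in each of the 6 mice, coloured by genotype. The fast genes other than Myh2 lie at 52.6 FPKM or above in every mouse, while Myh7, Tnni1 and Tnnc1 lie below 1 FPKM in all mice except homozygous mouse 49.

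Among the myosins, Myh4 (ENSMUSG00000057003), the type IIB motor, measured 52.6 and 111 FPKM in wildtype mice 39 and 41, 166 and 226 in heterozygous mice 37 and 40, and 191 and 278 in homozygous mice 47 and 49. Myh1 (ENSMUSG00000056328), the type IIX motor, measured 65.7 and 75.9 FPKM in the wildtype pair, 151 and 180 in the heterozygous pair and 151 and 207 in the homozygous pair. Both genes were higher in all 4 mutant mice than in either wildtype mouse, and the heterozygous and homozygous ranges overlapped. The type IIA gene Myh2 (ENSMUSG00000033196) was far lower, with 2.49 and 1.73 FPKM in the wildtype pair, 2.81 and 3.25 in the heterozygous pair and 2.73 and 5.37 in the homozygous pair. The slow gene Myh7 (ENSMUSG00000053093) measured 0.0462 and 0.0481 FPKM in the wildtype pair, 0.00946 and 0.0392 in the heterozygous pair and 0.0443 in homozygous mouse 47. Homozygous mouse 49, with 1.74 FPKM, was the only mouse in which Myh7 exceeded 0.05 FPKM.

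Set against each other within a mouse, Myh4 and Myh1 shared the signal almost evenly. Myh4 made up 43.5% and 58.8% of the 4 adult myosins in wildtype mice 39 and 41, 52.0% and 55.3% in heterozygous mice 37 and 40, and 55.4% and 56.5% in homozygous mice 47 and 49. Myh4 exceeded Myh1 in 5 of 6 mice, wildtype mouse 39 being the exception, and the spread of the Myh4 share between the wildtype mice spanned every mutant value. Myh2 made up 0.790% to 2.06% and Myh7 0.00296% to 0.354%, with the highest share of Myh2 in wildtype mouse 39 and of Myh7 in homozygous mouse 49.

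**Figure D2:**
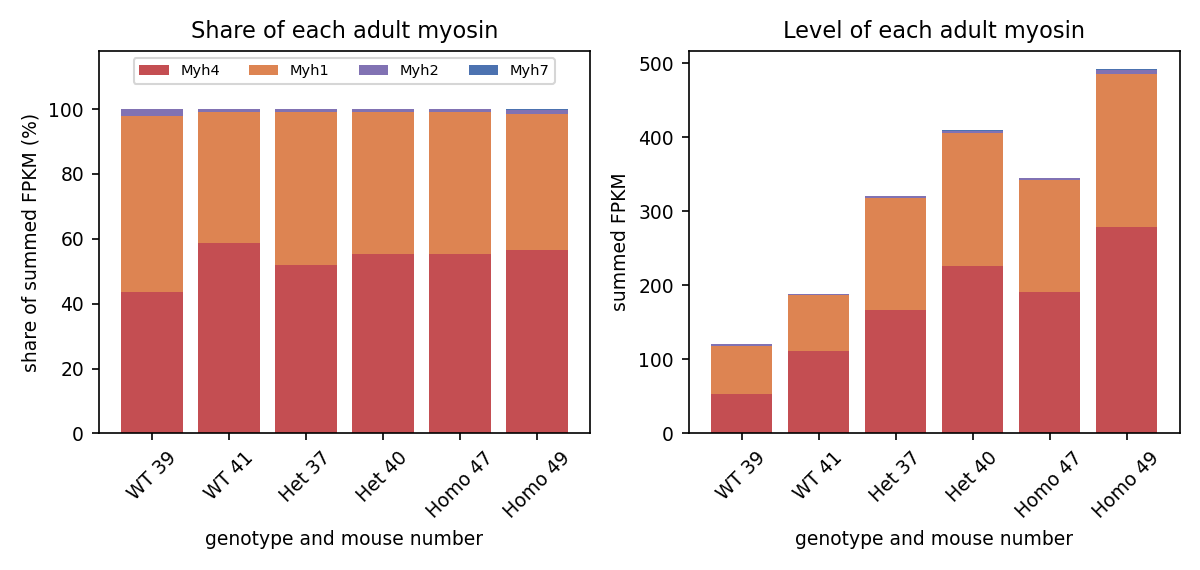
Share of the 4 adult myosin heavy chains (percent of their summed FPKM) in each mouse. Myh4 and Myh1 fill at least 97.9% of every bar, Myh2 at most 2.06%, and the slow Myh7 is too thin to see at 0.354% or less.

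Of the other striated myosin heavy chains, Myh8 was the most abundant. Myh8, the perinatal myosin, measured 7.33 and 11.6 FPKM in the wildtype pair, 23.8 and 33.8 in the heterozygous pair and 26.1 and 32.7 in the homozygous pair, and made up 5.72% to 7.62% when 8 striated myosins were summed. The embryonic Myh3 reached at most 0.0386 FPKM and the cardiac Myh6 at most 0.137 FPKM. Myh13, the extraocular myosin, reached 1.31 FPKM in homozygous mouse 47.

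The fast troponins were the most abundant of the 10 genes. Tnni2 (ENSMUSG00000031097), the fast inhibitory subunit, measured 191 and 240 FPKM in wildtype mice 39 and 41, 487 and 518 in heterozygous mice 37 and 40, and 606 and 486 in homozygous mice 47 and 49. Tnnt3 (ENSMUSG00000061723), the fast tropomyosin-binding subunit, measured 274 and 362 FPKM in the wildtype pair, 725 and 786 in the heterozygous pair and 878 and 762 in the homozygous pair. Tnnc2 (ENSMUSG00000017300), the fast calcium sensor, measured 221 and 288 FPKM in the wildtype pair, 535 and 581 in the heterozygous pair and 751 and 535 in the homozygous pair. For these 3 genes every mutant value was above every wildtype value. Homozygous mouse 47 was the highest for all 3, in contrast to the fast myosins, of which mouse 49 had the most.

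The order of the fast troponins and Myh4 was the same in all mice. Tnnt3 exceeded Tnnc2, Tnnc2 exceeded Tnni2 and Tnni2 exceeded Myh4 in 6 of 6 mice. Over the 6 mice the means were 631 FPKM for Tnnt3, 485 for Tnnc2, 421 for Tnni2, 171 for Myh4 and 138 for Myh1. Tnnt1 at 7.03 and Myh2 at 3.06 came next, and Tnnt1 exceeded Myh2 in 6 of 6 mice. At the bottom, Tnnc1 (0.780), Tnni1 (0.596) and Myh7 (0.322) had means set largely by mouse 49. Tnnc1 exceeded Tnni1 in 4 of 6 mice and Tnni1 exceeded Myh7 in 5 of 6, so the order of these neighbours did not hold in each mouse.

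Among the slow troponins, Tnnt1 (ENSMUSG00000064179) was the only gene above 1 FPKM in every mouse. It measured 6.93 and 5.12 FPKM in the wildtype pair, 6.52 and 7.37 in the heterozygous pair and 7.25 and 8.97 in the homozygous pair, and the heterozygous and wildtype ranges overlapped. Its neighbour Tnni3, a cardiac gene, also lay in a narrow range of 3.77 to 6.65 FPKM. Tnni1 (ENSMUSG00000026418), the slow inhibitory subunit, measured 0.345 and 0.159 FPKM in the wildtype pair, 0.596 and 0.377 in the heterozygous pair and 0.522 and 1.58 in the homozygous pair. Tnnc1 (ENSMUSG00000091898), the slow and cardiac calcium sensor, measured 0.442 and 0.511 FPKM in the wildtype pair, 0.631 and 0.277 in the heterozygous pair and 0.134 and 2.69 in the homozygous pair. The lowest and the highest Tnnc1 value were thus both found in homozygous mice, in mouse 47 and mouse 49.

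Within each troponin family the slow form was a small part. Tnni1 made up 0.0663% to 0.323% of troponin I, Tnnc1 0.0179% to 0.499% of troponin C and Tnnt1 0.820% to 2.46% of troponin T. For troponin T the share was 2.46% and 1.40% in the wildtype pair, 0.891% and 0.929% in the heterozygous pair and 0.820% and 1.16% in the homozygous pair, so that both wildtype values were above all 4 mutant values. Since Tnnt1 itself lay between 5.12 and 8.97 FPKM, most of this difference in share was in the fast Tnnt3. For troponin I the shares of the genotypes overlapped. For troponin C the share was 0.177% or more in wildtype mice, above the 0.118% and 0.0476% of heterozygous mice, and the homozygous values of 0.0179% and 0.499% lay on either side of both.

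**Figure D3:**
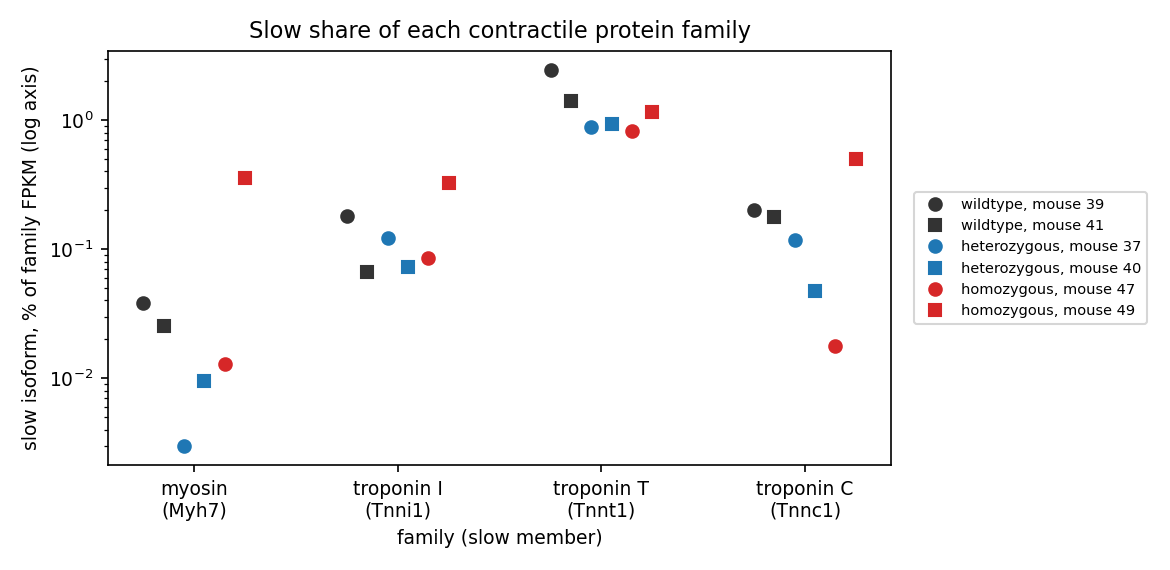
Slow isoform as a percentage of the FPKM of its family (log axis) for myosin, troponin I, troponin T and troponin C, with 1 point per mouse. Homozygous mouse 49 is highest for 3 of the 4 families, and for troponin T the 2 wildtype mice are highest at 1.40% and 2.46%.

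To ask whether the balance of fast and slow isoforms differed between genotypes, the log2 ratio of 6 isoform pairs was compared with a two-sided exact permutation test over the 15 ways to place 6 mice in 3 pairs, which cannot give a p-value below 0.0667. The fast to slow ratio gave p = 0.2 for Tnnt3 to Tnnt1, p = 0.733 for Tnni2 to Tnni1, p = 0.867 for Tnnc2 to Tnnc1 and p = 0.4 for Myh4 to Myh7 in this exact test. Between fast types it gave p = 0.867 for Myh4 to Myh1 and p = 0.6 for Myh4 to Myh2, again exact. Adjusted over the 6 ratios, all were 0.867. The linear ratio of Tnnt3 to Tnnt1 ran from 39.6 in wildtype mouse 39 to 121 in homozygous mouse 47, and that of Tnnc2 to Tnnc1 from 199 in mouse 49 to 5592 in mouse 47, so the widest range in the latter lay within the homozygous genotype.

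The levels of the fast genes were next compared between genotypes with limma on log2(FPKM + 0.1) over 13818 genes (mean of the 6 mice at 1 FPKM or more), a scale on which the change of low genes is understated. Of the 10 genes, 7 passed this filter, and Myh7, Tnni1 and Tnnc1 did not. In heterozygous against wildtype mice the mean was 2.40-fold for Myh4 (196 ± 42.2 against 81.7 ± 41.2 FPKM), 2.33-fold for Myh1 (165 ± 20.3 against 70.8 ± 7.22 FPKM), 2.33-fold for Tnni2, 2.38-fold for Tnnt3 and 2.20-fold for Tnnc2 (all SD, n = 2 mice). It was 1.44-fold for Myh2 and 1.15-fold for Tnnt1. None of the 7 genes had an adjusted p-value under 0.05 in limma, and neither had any of the 13818 genes (0.00%), of which 949 had an unadjusted p-value under 0.05. At an unadjusted p-value under 0.05, 5 of the 7 were higher, against 4.66% of all genes tested.

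The log2 fold change in heterozygous mice was 1.35 for Myh4 (SE 0.40, adjusted p = 0.523 from limma), 1.22 for Myh1 (SE 0.20, adjusted p = 0.221 from limma) and 1.26 for Tnnt3 (SE 0.22, adjusted p = 0.230 from limma). For Tnni2 and Tnnc2 it was 1.23 and 1.15, and for Myh2 0.52. The 5 most abundant fast genes, on chromosomes 2, 7 and 11, therefore lay between 1.15 and 1.35, while the median of all genes tested was -0.01. Tnnt1 was at 0.21 (SE 0.20, adjusted p = 0.919 from limma). Of the 7 genes, 6 had both heterozygous values above both wildtype values, against 19.2% of all genes tested, and Tnnt1 was the exception.

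In homozygous against wildtype mice the folds were of the same order. The mean was 2.87-fold for Myh4 (235 ± 61.4 FPKM), 2.53-fold for Myh1 (179 ± 39.3), 2.53-fold for Tnni2 (546 ± 85.1 against 216 ± 34.3 FPKM), 2.58-fold for Tnnt3 (820 ± 82.2 against 318 ± 61.8), 2.53-fold for Tnnc2 (643 ± 153 against 254 ± 47.3), 1.92-fold for Myh2 and 1.35-fold for Tnnt1 (SD, n = 2 mice). The lowest adjusted p-value was that of Myh1, with a log2 fold change of 1.32 (SE 0.20, adjusted p = 0.0838 from limma), followed by Tnni2 with 1.34 (SE 0.21, adjusted p = 0.0853) and Tnnt3 with 1.38 (SE 0.22, adjusted p = 0.0910). For Tnnc2 it was 1.33 (SE 0.25, adjusted p = 0.116), for Myh4 1.59 (SE 0.40, adjusted p = 0.168), for Myh2 0.85 (SE 0.36, adjusted p = 0.293) and for Tnnt1 0.43 (SE 0.20, adjusted p = 0.325), all from limma. None of the 7 genes passed, against 0.384% of all genes tested in either direction. At an unadjusted p-value under 0.05 the 5 abundant fast genes were higher in limma, against 8.65% of all genes, and all 7 had both homozygous values above both wildtype values, against 21.3%.

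No difference between homozygous and heterozygous mice passed the test. The log2 difference lay between 0.10 and 0.33 for the 7 genes, with adjusted p-values of 0.752 to 0.881 from limma, and 0 of 7 passed, against 0.0145% of all genes. At an unadjusted p-value under 0.05 it was also 0 of 7, against 1.97% higher among all genes. None of the 7 had homozygous values wholly above the heterozygous ones, against 18.0% of all genes, but 5 did without heterozygous mouse 40, 4 without homozygous mouse 47 and 3 without homozygous mouse 49. For Myh4 the difference was 0.25 (SE 0.40), which leaves room for a change of either sign, and without mouse 49 it was -0.02. Across the 3 genotypes together 0 of 7 passed the moderated F-test of limma, with adjusted p-values of 0.152 to 0.580, against 0.101% of all genes, and 5 of 7 had an unadjusted p-value under 0.05, against 11.5%. All 4 mutant mice were above both wildtype mice for 6 of the 7 genes, against 11.6% of all genes, and 0 of 7 had all 6 values in the order of allele number, against 3.85%.

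**Figure D4:**
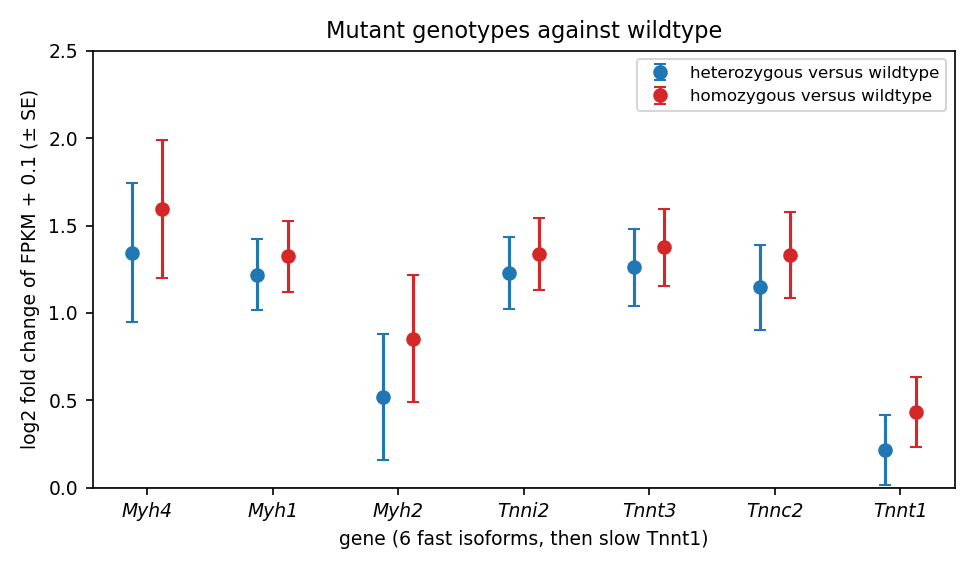
Log2 fold change against wildtype of the 7 fibre genes that passed the filter, in heterozygous and homozygous mice, with standard errors from limma. The 5 abundant fast genes lie between 1.15 and 1.59, Myh2 at 0.52 and 0.85, and the slow Tnnt1 at 0.21 and 0.43.

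The 3 slow genes under the filter were fitted in a second limma run without it. In homozygous against wildtype mice the log2 fold change was 1.59 for Tnni1 (SE 0.61, adjusted p = 0.390), 1.81 for Myh7 (SE 1.19, adjusted p = 0.587) and 0.49 for Tnnc1 (SE 1.20, adjusted p = 0.893), and the homozygous mice differed from each other in all 3 genes. In heterozygous mice the values were 0.76, -0.25 and -0.13, with adjusted p-values of 0.869, 1 and 1 from limma.

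The high slow values came from 1 mouse. The sum of Myh7, Tnni1 and Tnnc1 was 6.01 FPKM in homozygous mouse 49 and 0.693 to 1.24 FPKM in the other 5 mice. Myh7 was 36.3 times, Tnnc1 4.25 times and Tnni1 2.65 times the next highest mouse, whereas Tnnt1, the remaining slow gene, was 8.97 FPKM against 5.12 to 7.37. Of the 19130 genes above 0 in every mouse, 76 (0.397%) were at least 2-fold above every other mouse in mouse 49, and 3 of the 10 fibre genes were among them. Of the 10 genes, 7 had their highest value in mouse 49, against 17.4% of all such genes. Even there, Myh7 was 0.354% of the adult myosins, so the fast isoforms made up most of the signal of the 10 genes in that mouse as well.

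A list of 12 further genes of slow fibres, some of which fast fibres also use, summed to 361 to 435 FPKM in wildtype, 778 to 808 in heterozygous and 819 to 888 in homozygous mice. Of these genes, 8 had their highest value in mouse 49, against 17.4% of the genes above 0 in every mouse. That set leaves out Myl2, which is counted among the 8. All 4 mutant values were above both wildtype values for 9 of the 12, Myh7b among them, which was not tested (mean 0.115 FPKM). Of the 9 tested genes, 8 had both heterozygous values above both wildtype values, against 19.2% of all genes tested. The homozygous values were above for 8 as well, against 21.3%. Myl2, the slow and ventricular regulatory light chain, was listed at 0 in mice 39 and 37, measured 0.202 to 0.235 FPKM in mice 41, 40 and 47 and reached 3.56 FPKM in mouse 49. Ankrd2, a stretch-responsive protein of slow fibres, was 0.110 to 0.387 FPKM in the other 5 mice and 1.18 FPKM in mouse 49, and Myoz2, a Z-disc protein, 1.16 to 1.66 against 3.03 FPKM. These 3 genes, named after their values were seen, had the same highest mouse as Myh7, Tnni1 and Tnnc1. Of the same list, 3 others (Mb, Myl3 and Sln) were highest in mouse 47, and Myh7b was highest in mouse 37. The 4 genes of the list with the highest mean FPKM were higher in all 4 mutant mice than in the wildtype mice, as were the fast genes. Mb lay between 162 and 502 FPKM, Fhl1 between 104 and 187, Myl3 between 32.1 and 108 and Mybpc1 between 23.6 and 64.9. Myl3, a slow and ventricular essential light chain, was 2.55-fold in heterozygous and 2.70-fold in homozygous mice, and the oxygen store myoglobin (Mb) 2.21-fold and 2.36-fold, as ratios of mean FPKM to wildtype. The same ratios were 2.02-fold and 2.32-fold for Mybpc1, a myosin-binding protein of the thick filament, and 1.47-fold and 1.59-fold for Fhl1, a LIM protein of striated muscle. Of the 9 genes of the list that were tested, 0 passed in limma in either comparison with wildtype. At an unadjusted p-value under 0.05, 7 were higher in each, against 4.66% (heterozygous) and 8.65% (homozygous) of all genes tested. The median log2 fold change was 0.75 in heterozygous and 0.81 in homozygous mice.

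Heart muscle shares Myh7, Tnnc1 and Myl2 with slow fibres, so its defining genes were read in the same mice. Myl7 and Nppb, of the atria and of the stressed ventricle, were listed at 0 in all 6 mice. Nppa was listed at 0 in 5 mice and at 0.0466 FPKM in mouse 37, and the cardiac Myh6 was highest in mouse 47, not in mouse 49. The cardiac troponin genes Tnni3 (3.77 to 6.65 FPKM) and Tnnt2 (3.58 to 15.9 FPKM) were present in every mouse.

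Other genes of fast fibres and of skeletal muscle in general followed the fast members. A list of 12 further fast genes summed to 877 to 1249 FPKM in wildtype, 2353 to 2534 in heterozygous and 2673 to 3242 in homozygous mice. All 12 had every homozygous and every heterozygous value above the wildtype values, against 11.6% of all genes tested. Their median log2 fold change was 1.22 in heterozygous and 1.5 in homozygous mice. The most abundant were the light chains Myl1 (2.29-fold in heterozygous and 2.82-fold in homozygous mice, as ratios of mean FPKM) and Mylpf (2.32-fold and 3.00-fold), the calcium pump Atp2a1 (2.31-fold and 2.56-fold) and the muscle enolase Eno3 (2.28-fold and 2.59-fold). None of the 12 passed in limma in either comparison. At an unadjusted p-value under 0.05, 11 were higher in each, against 4.66% (heterozygous) and 8.65% (homozygous) of all genes tested. Among 12 genes used by all skeletal fibres, which include skeletal actin (Acta1, 2.20-fold and 2.42-fold) and muscle creatine kinase (Ckm, 2.49-fold and 2.60-fold), the summed FPKM was 877 to 1340 in wildtype, 2495 to 2531 in heterozygous and 2581 to 2859 in homozygous mice. The medians were 1.16 and 1.33, and all 12 were higher at an unadjusted p-value under 0.05 in each comparison, against 4.66% and 8.65%. Of the 12, 2 passed the adjusted threshold in homozygous mice, against 0.384% of all genes tested. These rose in homozygous mice and were Cacna1s, the voltage sensor of the calcium release unit, with 1.61 (SE 0.12, adjusted p = 0.0175 from limma), and Trdn, its partner triadin in the sarcoplasmic reticulum, with 1.57 (SE 0.15, adjusted p = 0.0345 from limma). Under the 13 alternatives run, Cacna1s passed in 8 and Trdn in 5, both with the same direction in all 13, and the call of Cacna1s was lost without mouse 39, 37, 40 or 47 and that of Trdn without any 1 of the 6 mice. The medians over all genes tested were -0.01 and -0.04.

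Genes of the other tissues in the sample were read beside these values. Smooth muscle genes summed to 1758 to 2088 FPKM in wildtype, 1972 to 2424 in heterozygous and 1986 to 2899 in homozygous mice, so the ranges overlapped. Smooth muscle actin (Acta2) was at 1.09-fold and 1.27-fold of the wildtype mean in heterozygous and homozygous mice, and Tagln at 1.08-fold and 1.04-fold. Des was at 1.36-fold and 1.29-fold, with all 4 mutant mice above both wildtype mice, and Cnn1 at 1.13-fold and 1.28-fold. Of 9 tested, 0 passed in limma in either comparison with wildtype. At an unadjusted p-value under 0.05, 0 and 2 were higher in heterozygous and homozygous mice, against 4.66% and 8.65% of all genes tested. Both mutant values were above both wildtype values for 4 of the 9 in each comparison, against 19.2% and 21.3% of all genes, and below for 0. The median log2 fold changes were 0.23 and 0.36. The 10 prostate epithelial genes summed to 21820 to 23700 FPKM in wildtype, 15408 to 17779 in heterozygous, and 1482 and 13873 in homozygous mice 47 and 49. Their sum was thus lower in all 4 mutant mice, in which the fibre genes were higher, and the part of tissue composition in the fibre gene values was not tested. Without mouse 47, which leaves 1 homozygous mouse in the fit, the log2 fold change against wildtype was 1.86 for Myh4, 1.55 for Myh1, 1.18 for Tnni2, 1.27 for Tnnt3 and 1.09 for Tnnc2. Without mouse 49 it was 1.32, 1.10, 1.5, 1.48 and 1.58 in the same order, so the difference from wildtype was present in each homozygous mouse alone.

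The fast genes split by length within a genotype. In homozygous mouse 49 against mouse 47 the long myosin genes were higher, by 0.54 for Myh4, 0.45 for Myh1 and 0.95 for Myh2 on the log2 scale, while the short fast troponin genes were lower, at -0.32 for Tnni2, -0.20 for Tnnt3 and -0.49 for Tnnc2. The ratio of fast myosin to fast troponin FPKM was accordingly lowest in mouse 47 (0.155) and highest in mouse 49 (0.275), with 0.176 to 0.217 in the other 4 mice. Across 30 skeletal muscle genes, which share their libraries and are not independent, the log2 ratio of mouse 49 to mouse 47 rose with transcript length (Pearson's r 0.748, Spearman's rho 0.781). The same correlation was 0.644 for heterozygous mouse 40 against 37 and -0.298 for wildtype mouse 41 against 39.

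Differences with length between mice of the same genotype were also present over all genes tested. Their sign follows which mouse is set against which, and it is no property of the genotype. From transcripts under 1 kb to those over 4 kb, the median log2 ratio went from -0.16 to 0.14 for mouse 49 against 47 and from -0.20 to 0.12 for mouse 40 against 37, and from 0.21 to 0.02 for mouse 41 against 39. The part of transcript length in the difference between mice 49 and 47 was not tested. The 4 slow genes, each highest in mouse 49, have transcripts of 721 (Tnnc1), 1059 (Tnnt1), 1150 (Tnni1) and 6230 bases (Myh7). The part of length in their values was not tested either.

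**Figure D5:**
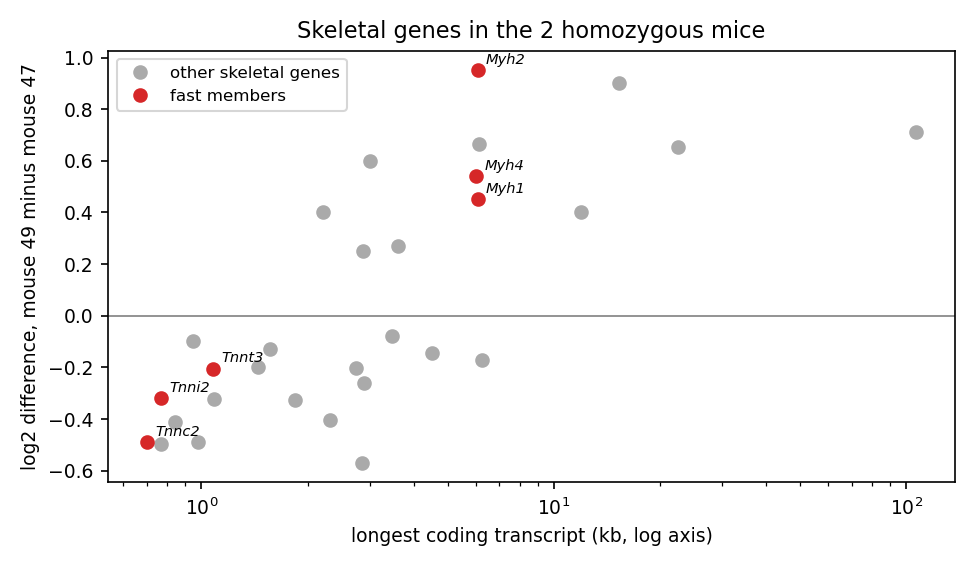
Difference in log2(FPKM + 0.1) between homozygous mice 49 and 47 against the length of the longest coding transcript (log axis) for 30 skeletal muscle genes, with the 6 fast fibre genes in red. The points rise from the short fast troponins (-0.49 to -0.20) to the long fast myosins (0.45 to 0.95).

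Neighbouring myosin genes are similar in sequence, which limits how exactly reads can be assigned. Of the 100-base windows of their transcripts, 9.73% in Myh1, 9.17% in Myh2, 3.85% in Myh4 and 6.61% in Myh8 also occur in another gene, and 11.2% in Myh7, all of them in Myh6. No window of the 6 troponin genes is shared. The low values of Myh2, 1.73 to 5.37 FPKM, stand beside Myh1 at 65.7 to 207 FPKM. The 9.17% of shared windows therefore sets no upper limit on the part of the Myh2 values that reads of Myh1 could supply. That part was not tested, either for the values of Myh2 or for its differences between genotypes. How shared reads were counted is not given in the sources used here. In mouse 49 Myh6 measured 0.0386 FPKM beside 1.74 FPKM for Myh7. It was above Myh7 in mouse 47 (0.137 against 0.0443 FPKM) and in mouse 37 (0.0189 against 0.00946 FPKM), and below it in mice 39, 41 and 40. The part of the Myh7 values that reads of Myh6 could supply was not tested.

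The fast troponins followed each other closely over the 6 mice, with Pearson's r of 0.998 for Tnni2 and Tnnt3 and 0.995 for Tnni2 and Tnnc2, given as a description of 6 libraries. Myh4 and Myh1 had r = 0.950 and Myh7 and Tnnc1 0.846, while the fast and slow troponin C genes had -0.120. Of 12482 genes compared, the 10 most like the mean log2 of the fast troponins were Hoxc6, Prol1, Myoz1, Asb14, Bin1, Clu, Car14, Trim54, Rpl3l and Cacng1, with r from 0.998 to 0.991. The genes compared left out every gene of the lists read here, those of slow fibres included, so none of these could appear. Myoz1 is a Z-disc protein of fast fibres, Cacng1 a subunit of the muscle calcium channel and Clu the secreted chaperone clusterin. The 10 most like the mean log2 of the slow troponins were Lilr4b, Clec7a, St3gal1, Nav2, Ccl2, Loxl3, Zfp865, Tlr2, Fam229b and Zfp26, with r from 0.998 to 0.945. Among them are the innate immune receptors Clec7a and Tlr2 and the chemokine Ccl2. With 1 mouse far above the others, such an r describes that mouse.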

How the data were processed

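Gene-level expression was measured by RNA-seq in the prostates of 6 mice, 2 per genotype, each assigned from the submitters' labels. The authors prepared stranded mRNA libraries, aligned the reads to GRCm38 (mm10) with HISAT, quantified genes with Cufflinks and deposited 1 table of FPKM per mouse; the submitters' processing notes also name bcl2fastq and Cuffnorm. Versions, annotation and the treatment of reads shared between genes are not given in the sources used here. FPKM holds no fragment counts, so no count test was run, and depth is known only relative to the other mice. Of the 47719 identifiers, 47219 were in GENCODE release M21 of GRCm38, used for positions, transcript lengths (of the longest coding transcript) and shared 100-base windows.

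A model with the 3 genotypes was fitted to log2(FPKM + 0.1) of 13818 genes (mean FPKM of at least 1) with limma 3.58.1 in R 4.3.3 (lmFit, eBayes with trend), with Benjamini-Hochberg adjustment over all genes and a threshold of 0.05; it was tested on simulated data. Isoform ratios were compared by exact permutation. Tables and figures were made in Python 3.11.15 (matplotlib 3.10.9, pandas 2.3.3, numpy 2.4.6). Promoters are RefSeq windows of 300 bases. All 10 genes are named. Of each further list the rule takes its counts, its summed FPKM and up to 4 most abundant genes, of which those that bear on the 10 genes are printed, and for each troponin pattern the 10 genes with the highest Pearson's r; other genes named were chosen after their values were seen. A gene named by this rule is not reported here. The members and lists were chosen with earlier results of these data known. The labels name no litter, cage or batch, and p-values measure the spread between these mice.

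Alternatives were a pseudocount of 1 or 0.01, no filter, a mean FPKM of at least 5, median scaling, quantile normalization, a fit without trend, 8 myosins in the shares and leaving out each mouse.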

Additional observations from a re-analysis of the deposited data

How the results depend on the processing

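None of the 7 tested fibre genes passed the adjusted threshold in any comparison under any alternative run. Against wildtype, their log2 fold changes kept direction in all 90 values each for heterozygous (adjusted p from 0.167 to 1) and homozygous mice (0.0506 to 0.698, both from limma). For homozygous against heterozygous mice 84 values kept direction and 6 reversed, all on leaving out 1 mouse. The range was -0.020 to 0.52 for Myh4, -0.12 to 0.33 for Myh1 and -0.14 to 0.81 for Myh2, each lowest without homozygous mouse 49 and highest without mouse 47. It was -0.049 to 0.27 for Tnni2 and -0.058 to 0.43 for Tnnc2, each lowest without mouse 47 and highest without mouse 49, and Myh1 was also at -0.02 without heterozygous mouse 37. In that comparison 0 genes were higher without overlap, but 1 was with no filter or with median scaling, 4 with quantile normalization, and 0 to 5 when 1 mouse was left out (5 without mouse 40, 4 without 47, 3 without 49). The count of all genes called in homozygous against wildtype mice (53) was 4 with no filter, 23 without the trend and 4 to 128 leaving out 1 mouse (128 without mouse 49, 96 without 41, at most 7 without any of the others). In heterozygous against wildtype mice (0) it was 0 to 2 leaving out 1 mouse (2 without mouse 41). For homozygous against heterozygous mice (2) it was 1 with a pseudocount of 0.01 or a mean of at least 5, and 0 to 54 leaving out 1 mouse (54 without mouse 49, 0 without 37 or 40), and for the 3 genotypes (14) it was 3 with no filter, 4 with quantile normalization, 9 without the trend and 0 to 10 leaving out 1 mouse (0 without mouse 37 or 40, 10 without 41). Beside the leave-out fits, Cacna1s lost its call with no filter (adjusted p = 0.0665 from limma) and Trdn with no filter (0.105) or without the trend (0.0673). With a pseudocount of 0.1 the mean log2 ratio was 8.77 for Tnnc2 to Tnnc1 in wildtype mice, and for Myh4 to Myh7 9.02 in wildtype and 10.6 in heterozygous mice, since Myh7 lies below the pseudocount there. With 8 myosins summed, Myh4 made up 49.7% and 52.1%, Myh1 42.2% and 40.0% (heterozygous and homozygous mice) and Myh2 0.773% in heterozygous mice, because Myh8 enters the total. The cause of the other shifts was not tested. With 1 mouse left out, the lone mouse of its genotype is assumed to vary like the others. No paired analysis was possible because the animal numbers in the labels are not shared between genotypes. Depth limits Myh7, Tnni1 and Tnnc1 most, which lie below 1 FPKM in 5 mice.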

Other observations

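Genes that steer fibre type and muscle formation were read as further lists. Of 11 tested fibre-type regulators, 0 passed in limma in either comparison with wildtype. At an unadjusted p-value under 0.05, 3 and 4 were higher in heterozygous and homozygous mice, against 4.66% and 8.65% of all genes tested. The median log2 fold changes were 0.23 and 0.46. Mef2c, a muscle transcription factor also used by other cells, was 1.76-fold and 2.22-fold and Tbx15, a T-box factor of fast fibres, 1.40-fold and 1.75-fold of the wildtype mean, with all 4 mutant mice above both wildtype mice. Mef2d (1.04-fold and 1.01-fold) overlapped between genotypes. Among the myogenic regulators, Myf6, the factor of mature fibres, was 2.31-fold and 2.02-fold and Myod1 2.21-fold and 3.16-fold. Both were higher at an unadjusted p-value under 0.05 in each comparison, against 4.66% and 8.65% of all genes tested. Neither passed in limma (lowest adjusted p = 0.136). The adipocyte genes summed to 170 to 428 FPKM, and of 6 tested 0 passed in limma. At an unadjusted p-value under 0.05, 1 of the 6 was higher in each comparison, against 4.66% and 8.65% of all genes tested. Of 5 seminal vesicle genes, 1 passed in homozygous against wildtype mice, Svs2 (adjusted p = 0.0477 from limma), against 0.384% of all genes tested. Of 13 alternatives, 5 kept the call. Svs2 was listed at 0 in both homozygous mice and at 256 and 11018 FPKM in wildtype mice 39 and 41. In the same comparison the log2 fold change was -6.97 for Svs4 and -7.09 for Svs5, but 3.61 for Svs1 and 3.66 for Svs6.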
